A study of Mus musculus with 9 samples.

Results

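To examine how the transcriptome of a mouse myeloma line differs after disruption of its main glucose transporter gene, the 3 libraries of *Slc2a1* gRNA cultures were compared with the 3 libraries of control gRNA cultures, 6 of the 9 libraries in the series. Membership was set by the sample labels and not by any measured value. All cultures derive from 5TGM1, a mouse multiple myeloma line that was first given a constitutive Cas9 lentivirus, so the controls carry the nuclease as well. The control group received a guide RNA (gRNA) against *Rosa26*, a locus commonly used as a neutral site, and the *Slc2a1* group received a gRNA against *Slc2a1*. These were puromycin-selected bulk cultures and not clones, so each *Slc2a1* gRNA library is a mix of edited and unedited cells, and a change confined to the edited cells is diluted in it. The remaining 3 libraries, in which *Slc2a1*, *Slc2a3*, *Slc2a5*, *Slc2a6* and *Slc2a8* were targeted together, entered the statistical fit only to share the estimate of the spread.

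*Slc2a1* encodes GLUT1, the facilitative carrier that brings glucose across the plasma membrane of most proliferating cells. Imported glucose is phosphorylated by hexokinase and can then pass through glycolysis to pyruvate and lactate, feed the mitochondria and lipid synthesis, or supply the nucleotide sugars that are attached to secreted and surface glycoproteins. Plasma cells and their malignant counterparts, myeloma cells, secrete antibody in large amounts and therefore draw on glucose for glycosylation as well as for energy.

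The libraries held between 21939343 and 30537105 estimated counts, and 13834 of the 53077 genes in the tables passed the filter on low counts. The plasma cell label was checked against its markers. *Xbp1* stood at 403 to 568 TPM (transcripts scaled to a fixed total per library, a length-corrected level), *Irf4* at 93.1 to 136 TPM and *Sdc1* at 50.4 to 108.5 TPM in the 6 libraries, whereas *Cd38* and *Fcrl5* were at or near 0. Several defining markers of other cell types were also at or near 0 (*Ms4a1*, *Cd3e*, *Csf1r*, *S100a8*, *Col1a2* and *Hbb-bs*, each at most 0.194 TPM), although the B cell marker list summed to 99.1 to 145 TPM, nearly all of it *Cd79b*, and the myeloid list to 36.8 to 101.1 TPM, most of it *Cd68*. Transcripts of the mitochondrial genome took 8.01%, 8.02% and 4.84% of the counts in control replicates 1, 2 and 3 and 8.69%, 10.5% and 6.57% in *Slc2a1* gRNA replicates 1, 2 and 3. The share was thus higher in the *Slc2a1* gRNA library of each same-numbered pair, although the ranges overlapped.

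Expression of 642 of 13834 genes (4.64%) differed between the *Slc2a1* gRNA and control cultures at an adjusted p under 0.05, of which 311 (2.25%) were higher and 331 (2.39%) lower in the *Slc2a1* gRNA cultures. Of all genes tested, 26.2% had *Slc2a1* gRNA and control values, in normalised counts (CPM, the counts scaled to a common library total with TMM factors), that did not overlap, 1827 of them above and 1801 below the controls. The log2 fold changes had a median of -0.001, and 106 of the 642 genes differed by at least 2-fold. The balance of directions depended on scaling. When libraries were scaled by their total counts alone, the median of all genes moved to -0.10 and only 23.9% of the 737 genes called were higher, against 48.4% under TMM. All 642 genes had the same direction under that scaling. It moves all genes about alike and by less than the changes called, so this count is no test of their stability.

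**Figure D1:**
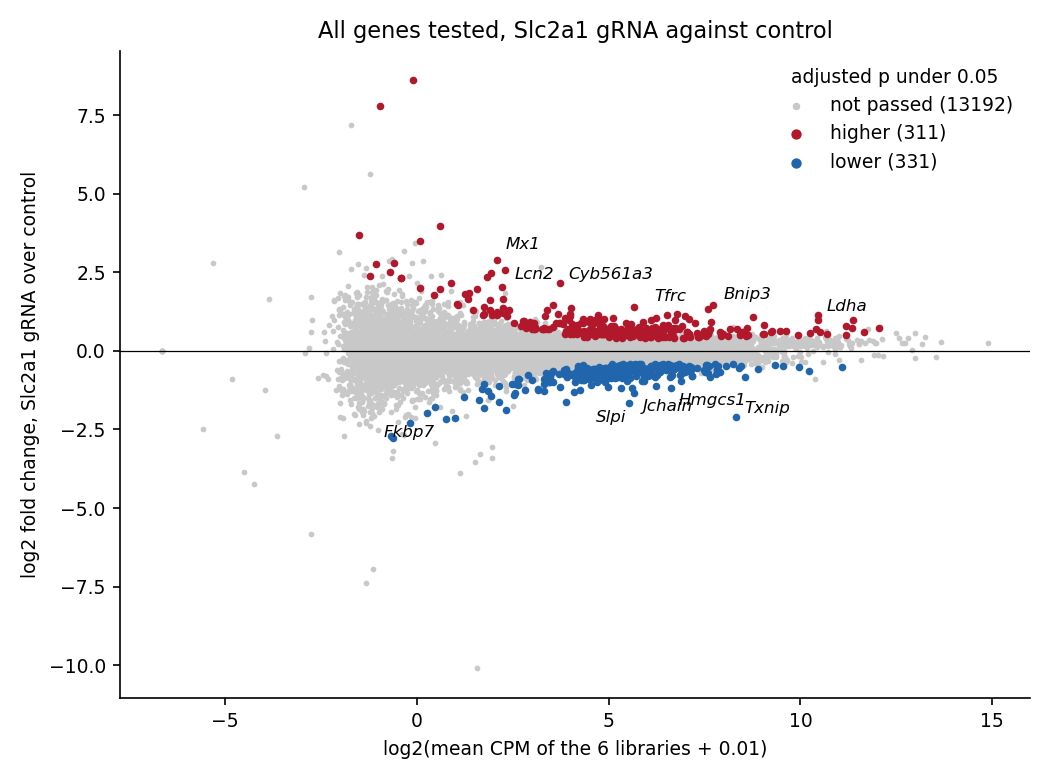
Each point is 1 of the 13834 genes tested, with its mean normalised level in the 6 libraries on the horizontal axis (log2 scale) and its log2 fold change, *Slc2a1* gRNA over control, on the vertical axis. The 311 genes that were higher (red) and the 331 that were lower (blue) lie at low, middle and high levels of expression, with *Mx1* (2.90) and *Txnip* (-2.11) among the genes labelled.

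The transcript of the targeted gene itself did not separate the groups. *Slc2a1* (chr4:119108711-119137983, GRCm38, plus strand) stood at 198, 95.2 and 94.0 CPM in the controls and 123, 98.5 and 98.0 CPM in the *Slc2a1* gRNA cultures. Control replicate 1 was the highest, followed by *Slc2a1* gRNA replicate 1, and the other 4 libraries lay between 94.0 and 98.5 CPM. The log2 fold change was -0.21 ± 0.18 (SE, n = 3 per group, adjusted p = 0.544), and it turned to 0.042 without control replicate 1. Small insertions and deletions made by Cas9 can leave a transcript in place, so the RNA level does not check the edit. Because a nuclease cut could act on adjacent genes, the 10 genes tested on each side were examined. Only *Ebna1bp2* and *St3gal3* of these 20 passed the threshold, both higher (log2 fold changes 0.56 and 0.78, adjusted p = 0.0307 and 0.0327), and the median of the 20 was 0.13.

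The strength of the calls rested on individual libraries. Leaving out control replicate 1, 2 or 3 lowered the count of genes called from 642 to 72, 11 and 45, and leaving out *Slc2a1* gRNA replicate 1 or 2 lowered it to 64 and 24. In contrast, 943 genes were called without *Slc2a1* gRNA replicate 3, and between 858 and 1291 when 1 of the 5-gene libraries was left out. Of the 642 genes, 7 passed the threshold in each of these 9 fits, namely *Ass1*, *Cd3eap*, *Cyb561a3*, *Ddit4*, *Gm20390*, *Maged1* and *Slpi* (the first 2 are named only for this, after their values were seen), and all 642 kept their direction in each. These fits share most libraries with the fit that chose the genes, so the kept direction is no test of stability.

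**Figure D2:**
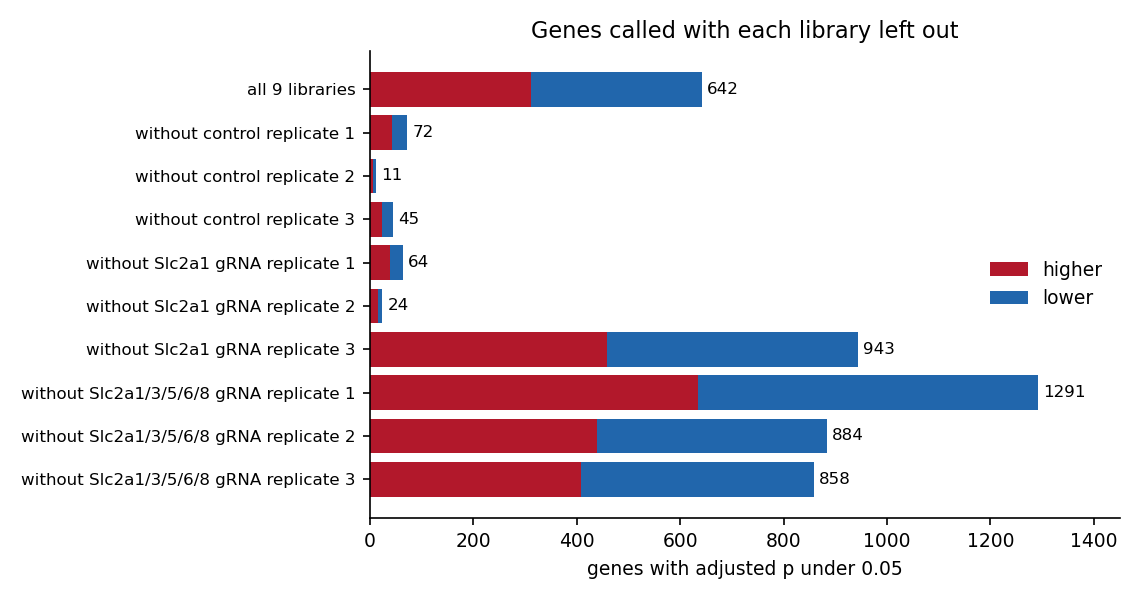
Bars give the number of genes with an adjusted p under 0.05, higher (red) and lower (blue) in *Slc2a1* gRNA cultures, in the fit on all 9 libraries and in the 9 fits that each leave out 1 library. The count falls from 642 to between 11 and 72 without any 1 of 5 libraries and is 858 or more without any of the other 4.

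To place these genes in pathways, 38 gene lists covering metabolism, stress responses, secretion, immunity, translation and the cell cycle were examined, with 903 distinct genes tested and 109 of them called. The lists do not have independent members, since some genes are in more than 1 list. Each list is given by how many members were higher or lower and by its median log2 fold change, to be read against the 2.25% higher, 2.39% lower and median near 0 of all genes. Where members without overlap between the groups are counted, the background is 1827 genes above and 1801 below the controls, of 13834 tested.

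**Figure D3:**
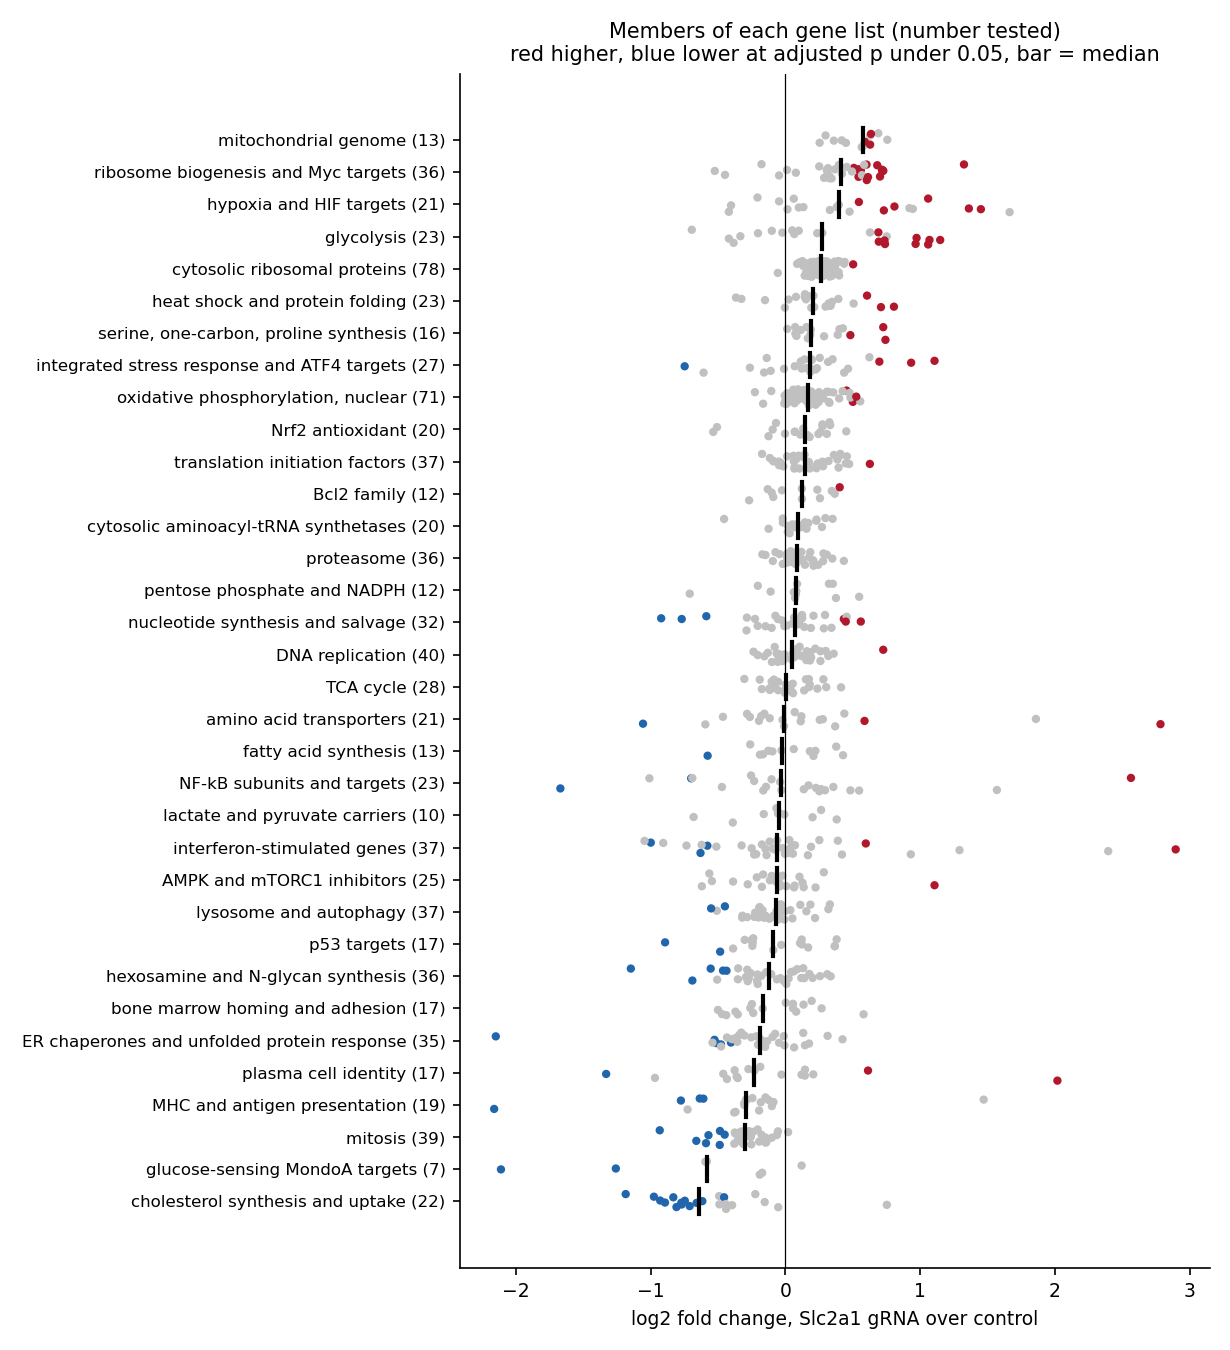
Each point is a gene and each row a gene list, with the number of members tested in parentheses. The horizontal axis is the log2 fold change, *Slc2a1* gRNA over control, black bars are list medians, and red and blue mark members higher or lower at an adjusted p under 0.05. Medians run from -0.64 for cholesterol synthesis and uptake to 0.58 for the mitochondrial genome. The lists of other cell markers are not drawn.

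Of 23 glycolysis genes tested, 9 were higher in the *Slc2a1* gRNA cultures, none was lower and 14 did not pass, with a median of 0.28. The 9 were the hexokinase *Hk2*, the phosphofructokinase *Pfkl*, *Tpi1*, *Gapdh*, *Pgk1*, *Pgam1*, *Eno1*, *Pkm* and *Ldha*, which together cover most steps from glucose to lactate. The summed TPM of the list was 10470, 6823 and 6342 in controls and 13080, 11460 and 11140 in *Slc2a1* gRNA cultures, so the groups did not overlap. The list median was 0.18 under total count scaling and 0.07 by limma on log2(TPM + 1) or log2(TPM + 0.1), where 0 and 1 of the genes passed. Without the replicate block 6 were called, and 3 with only the 2 groups compared and no block.

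*Ldha*, the lactate dehydrogenase subunit that reduces pyruvate to lactate, stood at 1260, 851 and 567 CPM in controls and 2159, 1912 and 1657 CPM in *Slc2a1* gRNA cultures (log2 fold change 1.15 ± 0.16, adjusted p = 0.0062). *Pgam1*, the phosphoglycerate mutase, stood at 417, 262 and 185 CPM against 707, 566 and 482 CPM (1.07 ± 0.16, adjusted p = 0.00698). *Hk2*, which phosphorylates glucose on entry, stood at 57.4, 40.2 and 48.8 CPM against 109, 93.5 and 103 CPM (1.06 ± 0.17, adjusted p = 0.0103). For these 3 genes every *Slc2a1* gRNA library was above every control library. *Tpi1*, the triose phosphate isomerase, stood at 1411, 897 and 595 CPM against 2100, 1904 and 1483 CPM (0.97 ± 0.17, adjusted p = 0.0144). Control replicate 1 was the highest of the controls for all of them and control replicate 3 the lowest for 3 of the 4, *Hk2* being the exception. Other isozymes did not pass the threshold: *Hk1*, *Pfkp* and *Pfkfb3* had log2 fold changes of 0.07, 0.05 and 0.10, and *Aldoc* and *Pfkfb4* had values of -0.69 and -0.42. The number of glycolysis genes called was 10, 0 and 1 without control replicate 1, 2 or 3 and 3, 0 and 8 without *Slc2a1* gRNA replicate 1, 2 or 3.

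The promoter of *Ldha* is printed here because it held the most motif matches among the genes that rose most, and that of *Bnip3*, a gene of the hypoxia list, because it also held an E-box. Both sequences are the 250 bases before a RefSeq start (GRCm38.p6), with matches in capitals.
Ldha (chr7:46845554-46845803, plus strand): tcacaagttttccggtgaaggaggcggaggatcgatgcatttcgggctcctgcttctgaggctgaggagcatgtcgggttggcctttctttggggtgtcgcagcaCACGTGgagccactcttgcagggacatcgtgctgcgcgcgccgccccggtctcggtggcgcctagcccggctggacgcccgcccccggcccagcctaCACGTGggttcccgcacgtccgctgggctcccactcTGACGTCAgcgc
Bnip3 (chr7:138909507-138909756, minus strand): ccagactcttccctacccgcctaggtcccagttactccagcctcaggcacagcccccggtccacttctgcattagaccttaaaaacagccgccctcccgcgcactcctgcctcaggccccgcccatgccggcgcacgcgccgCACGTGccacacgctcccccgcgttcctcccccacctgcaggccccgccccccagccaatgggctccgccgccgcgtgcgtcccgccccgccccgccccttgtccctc
The *Ldha* window is the first of its 2 RefSeq starts and holds 2 copies of CACGTG, the E-box bound by MYC, MAX and HIF-1 among others, 139 and 42 bases upstream, and 1 TGACGTCA, the cAMP response element, 4 bases upstream. The second start had no match. The *Bnip3* window holds CACGTG 102 bases upstream. On either strand CACGTG was found in 6.02% and TGACGTCA in 1.55% of the 32851 mouse promoter windows. Of the 30 genes that rose or fell most, 21 had an entry, and 5 of these held CACGTG (*Bnip3*, *Abca1*, *Ldha*, *Slpi* and *Arhgef39*), of which 3 were higher and 2 lower.

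Hypoxia-inducible factor (HIF) is a transcription factor that raises glycolytic and mitophagy genes when oxygen is low. Of 21 HIF targets tested, 6 were higher, none was lower and 15 did not pass, and the median was 0.40. By limma on log2(TPM + 1) and log2(TPM + 0.1) the median was 0.03 and 0.21 and none passed, and without the replicate block 3 were called. The summed TPM of the list overlapped between the groups, at 1137, 639.5 and 713 in controls and 1014, 767 and 991 in *Slc2a1* gRNA cultures, with control replicate 1 the highest of the 6. *Bnip3*, a receptor for mitophagy (chr7:138890836-138909519, minus strand), stood at 220, 97.0 and 52.7 CPM in controls and 336, 272 and 286 CPM in *Slc2a1* gRNA cultures (1.45 ± 0.27, adjusted p = 0.0165). The controls were spread more widely than the *Slc2a1* gRNA cultures, with replicate 1 the highest, and the groups did not overlap. *Ankrd37*, a HIF target of uncertain function, stood at 17.8, 7.32 and 4.96 CPM against 22.3, 22.5 and 22.8 CPM (1.36 ± 0.28, adjusted p = 0.0207). *Egln1*, an oxygen-sensing prolyl hydroxylase that marks HIF for degradation, rose by 0.81 ± 0.13 (adjusted p = 0.00861) and *Higd1a*, a mitochondrial protein, by 0.73 ± 0.13 (adjusted p = 0.0146). For *Higd1a* the groups overlapped, at 46.4 CPM in control replicate 1 and 44.6 CPM in *Slc2a1* gRNA replicate 3. Of the exonic bases of *Ankrd37*, *Higd1a* and *Bnip3*, 26.4%, 22.5% and 22.3% overlap genes on the opposite strand, and the kit does not keep strand. *Hk2* and *Bnip3l* completed the 6. *Vegfa* and *Pdk1*, other familiar targets, had values of 0.33 and 0.38 and did not pass. The calls numbered 5, 0 and 0 without control replicate 1, 2 or 3, and 2, 0 and 5 higher without *Slc2a1* gRNA replicate 1, 2 or 3.

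In contrast to glycolysis, the tricarboxylic acid cycle had no call among 28 genes and a median of 0.00. Its most abundant members, *Got2* (144 to 178 TPM in controls and 139 to 171 TPM in *Slc2a1* gRNA cultures) and *Cs*, the citrate synthase (139 to 171 TPM and 121 to 147 TPM), had overlapping groups. The pentose phosphate and NADPH list had no call among 12 genes (median 0.08), with *Rpia* at 180 to 209 TPM in controls and 178 to 209 TPM in *Slc2a1* gRNA cultures. No lactate or pyruvate carrier or pyruvate dehydrogenase regulator passed among 10 tested (median -0.05), and *Bsg*, the chaperone of the lactate carriers, was at 542 to 582 TPM and 472 to 495 TPM. Over all genes tested log2(TPM + 1) had a median difference of -0.11, so ranges in TPM are to be read against that shift. A gene that did not pass is not thereby shown to be equal in the groups.

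Oxidative phosphorylation gave few calls, all of them higher. Among the 71 nuclear-encoded subunits 3 were higher and none lower, with a median of 0.17 and positive values for 65. *Atp5g3*, a subunit of the ATP synthase ring, stood at 114, 121 and 102 CPM in controls and 179, 176 and 133 CPM in *Slc2a1* gRNA cultures (0.53 ± 0.13, adjusted p = 0.0352). *Ndufb7* (0.50 ± 0.11, adjusted p = 0.0301) and *Ndufa2* (0.45 ± 0.11, adjusted p = 0.0336), both of complex I, were the others. When libraries were scaled by total counts, 47 of the 71 values stayed positive, the median was 0.07 and no gene passed, and without the replicate block 1 did. All 13 protein-coding genes of the mitochondrial genome had positive values (median 0.58) and 3 passed, all complex I subunits. *mt-Nd6* stood at 701, 519 and 435 CPM against 1016, 877 and 663 CPM (0.64 ± 0.13, adjusted p = 0.0207). *mt-Nd5* (0.59 ± 0.14, adjusted p = 0.0315) and *mt-Nd4l* (0.63 ± 0.16, adjusted p = 0.0477) were the other 2, and for all 3 the groups overlapped although each same-numbered pair moved up. The 3 calls rested on the pairing, since none of the 13 genes passed without the replicate block, nor without control replicate 1, 2 or 3 or *Slc2a1* gRNA replicate 2, and 1 did without *Slc2a1* gRNA replicate 1 or 3. With the block kept, more passed in other settings: 5 by DESeq2, 10 with no filter on low counts and 11 with only the 2 groups compared.

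*Txnip* (chr3:96557957-96561883, plus strand), which encodes an arrestin-like inhibitor of glucose uptake and is transcribed when the glucose sensor MondoA detects glucose 6-phosphate, was among the genes that fell most. *Klf10*, another MondoA target and a zinc-finger repressor, fell alongside it, from 29.8, 27.5 and 23.6 CPM in controls to 8.90, 8.67 and 16.3 CPM in *Slc2a1* gRNA cultures (-1.26 ± 0.24, adjusted p = 0.017). For both genes *Slc2a1* gRNA replicate 3 was the highest of its group, with *Txnip* at 73.4, 93.5 and 195 CPM against 617, 528 and 401 CPM. Of the exonic bases of *Txnip*, 19.4% overlap a gene on the opposite strand. *Txnip* and *Klf10* were the only members called of 7 tested, with a median of -0.58. The median was -0.26 without *Slc2a1* gRNA replicate 1. Calls numbered 1, 0 and 1 without control replicate 1, 2 or 3 and 1, 0 and 4 without *Slc2a1* gRNA replicate 1, 2 or 3. The arrestin-domain genes *Arrdc3* and *Arrdc2* had values of -0.58 and -0.59 without passing, whereas *Mlxip*, which encodes MondoA, had a value of -0.17. The *Txnip* promoter is shown because 2 copies of CACGAG, in capitals, lie 79 and 68 bases upstream of its RefSeq start, an arrangement known as a carbohydrate response element.
Txnip (chr3:96557707-96557956, plus strand): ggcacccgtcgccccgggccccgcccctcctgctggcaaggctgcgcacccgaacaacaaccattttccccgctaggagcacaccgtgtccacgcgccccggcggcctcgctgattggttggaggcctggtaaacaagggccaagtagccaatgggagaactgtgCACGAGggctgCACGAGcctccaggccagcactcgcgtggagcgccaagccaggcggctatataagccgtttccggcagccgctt
The sequence CACGAG was present on either strand in 5.37% of the promoter windows, and *Txnip* was the only 1 of the 21 genes searched to hold it. No promoter entry was matched for *Klf10*.

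The list with the lowest median was cholesterol synthesis and uptake. Of 22 genes tested, 13 were lower, none was higher and 9 did not pass, with a median of -0.64. Every *Slc2a1* gRNA library was below every control for 18 of the 22, and for 1801 of all 13834 genes. The summed TPM of the list was 786, 834 and 897 in controls and 486, 402 and 591 in *Slc2a1* gRNA cultures. The genes called span the pathway from *Acat2* and *Hmgcs1* through *Mvd*, *Fdps* and *Fdft1* to *Lss*, *Cyp51*, *Msmo1*, *Nsdhl* and *Dhcr7*, and include the feedback regulator *Insig1*.

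*Hmgcs1*, which makes HMG-CoA at the start of the mevalonate pathway, stood at 122, 157 and 128 CPM in controls and 55.0, 46.7 and 78.9 CPM in *Slc2a1* gRNA cultures (-1.18 ± 0.17, adjusted p = 0.0063). *Msmo1*, a sterol demethylating oxidase, stood at 71.1, 91.3 and 76.8 CPM against 37.6, 34.3 and 51.0 CPM (-0.97 ± 0.14, adjusted p = 0.0063). *Mvd*, the mevalonate diphosphate decarboxylase, stood at 37.3, 43.2 and 37.6 CPM against 20.9, 19.2 and 23.5 CPM (-0.89 ± 0.13, adjusted p = 0.0063). Replicate 3 was the highest of the *Slc2a1* gRNA cultures for these 3 genes, yet it remained below the lowest control. *Fdps*, the farnesyl diphosphate synthase, of whose exonic bases 26.7% lie in an overlapping gene, stood at 156, 165 and 121 CPM against 94.3, 79.4 and 84.6 CPM (-0.77 ± 0.12, adjusted p = 0.00879). The calls numbered 5, 0 and 5 without control replicate 1, 2 or 3 and 6, 1 and 15 without *Slc2a1* gRNA replicate 1, 2 or 3.

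*Abca1* (chr4:53030787-53159895, minus strand), the transporter that exports cholesterol to apolipoproteins, was higher, at 78.4, 53.9 and 72.5 CPM in controls and 179, 130 and 150 CPM in *Slc2a1* gRNA cultures (1.17 ± 0.20, adjusted p = 0.0114). Of 13 fatty acid synthesis genes tested only *Acss2*, which makes acetyl-CoA from acetate, was lower (-0.58 ± 0.14, adjusted p = 0.0366), and *Fasn* and *Srebf1* had values of 0.43 and 0.38 that did not pass.

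**Figure D4:**
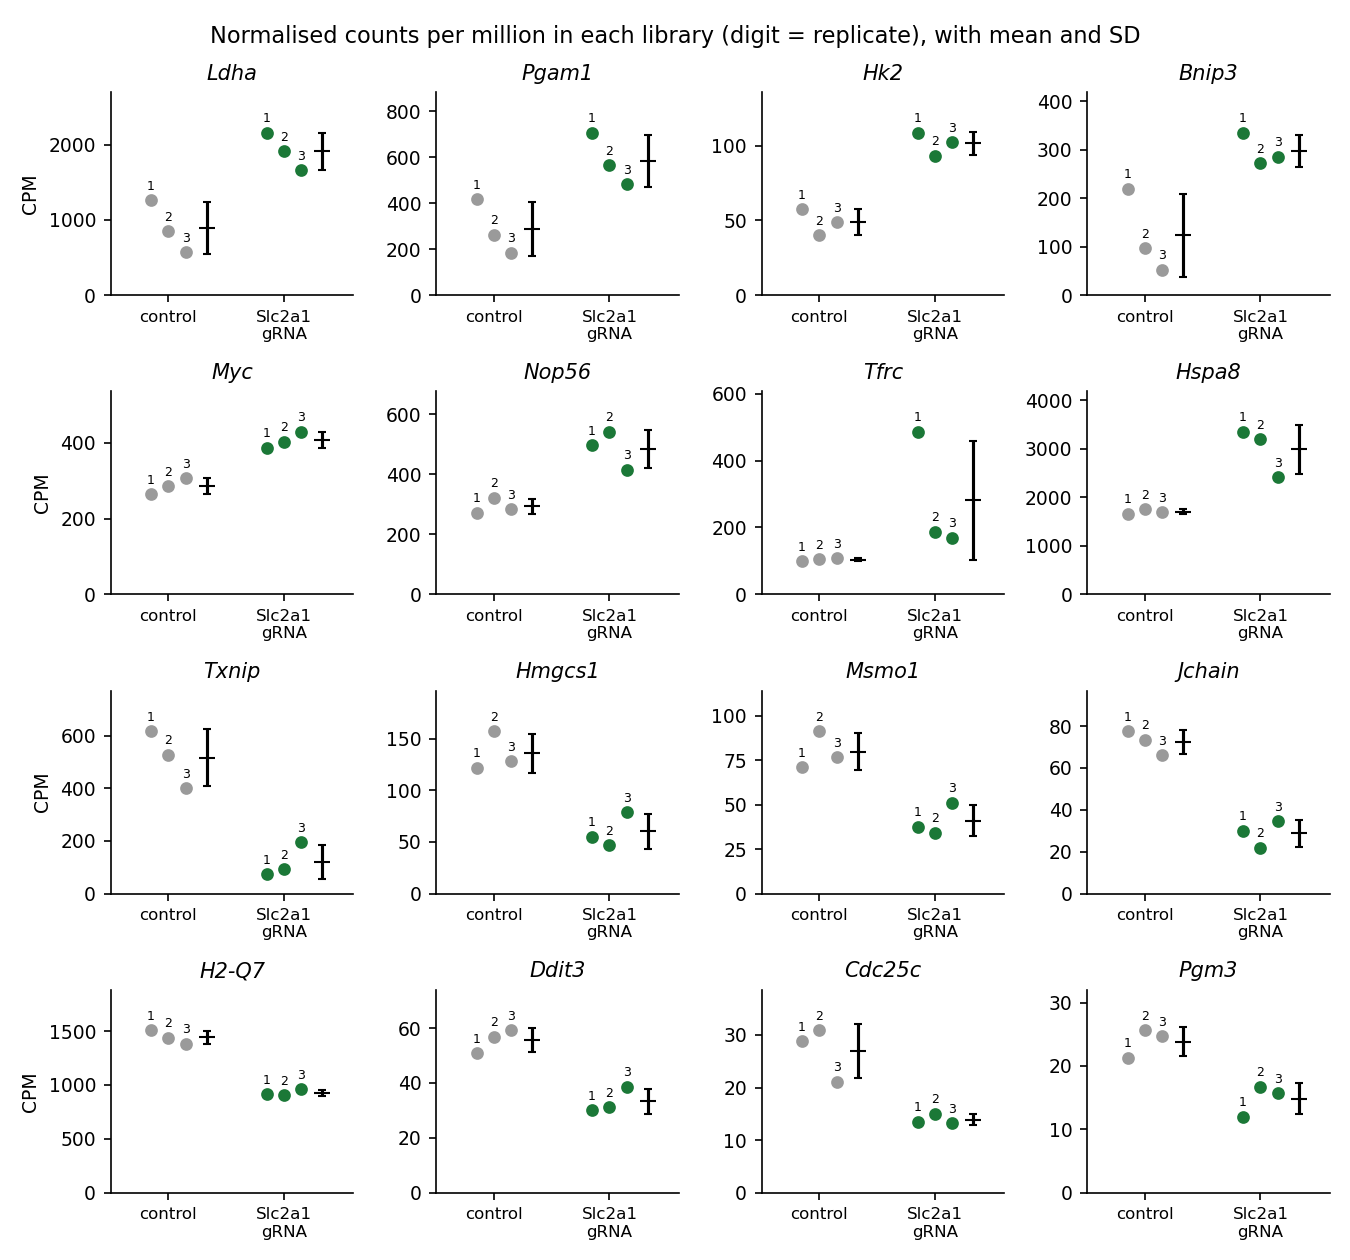
Normalised counts (CPM) in each of the 6 libraries for 16 genes, with the replicate number beside each point and the mean and SD (n = 3) as bars. The 8 genes of the top rows are higher and the 8 of the bottom rows lower in every *Slc2a1* gRNA library than in any control library; *Tfrc* ranges from 170 to 486 CPM in the *Slc2a1* gRNA cultures.

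The list of ribosome biogenesis genes and MYC targets mixes ribosome assembly factors with other targets such as *Tfrc*, *Nme1* and *Srm*. In it 13 of 36 were higher, none was lower and 23 did not pass, with a median of 0.41. All *Slc2a1* gRNA libraries were above all controls for 28 of the 36, and for 1827 of all 13834 genes. *Myc* itself, the transcription factor that drives this set in many tumours, stood at 265, 285 and 307 CPM in controls and 388, 403 and 429 CPM in *Slc2a1* gRNA cultures (0.51 ± 0.10, adjusted p = 0.0209). *Nop56*, a core protein of the complex that methylates ribosomal RNA, stood at 272, 321 and 284 CPM against 496, 541 and 414 CPM (0.73 ± 0.15, adjusted p = 0.0202). *Rrs1*, a ribosome assembly factor, stood at 36.5, 37.5 and 49.8 CPM against 73.1, 62.6 and 60.2 CPM (0.68 ± 0.14, adjusted p = 0.0219). The nucleoside diphosphate kinase *Nme1* rose by 0.70 ± 0.14 (adjusted p = 0.0178). The other genes called were *Tfrc*, *Utp20*, *Dkc1*, *Mybbp1a*, *Srm*, *Nop2*, *Ncl*, *Fbl* and *Npm1*. The MYC antagonists *Mxd3* and *Mxd1* had values of -0.52 and -0.45 that did not pass. Under total count scaling 8 were higher and the median was 0.32, and by limma on log2(TPM + 1) none passed and it was 0.23. Without control replicate 1, 2 or 3 no member was called, and without *Slc2a1* gRNA replicate 1, 2 or 3 the calls numbered 1, 0 and 19.

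*Tfrc* (chr16:32608920-32632794, plus strand), the transferrin receptor for iron uptake, was less even than the rest, at 99.6, 105 and 108 CPM in controls and 486, 188 and 170 CPM in *Slc2a1* gRNA cultures (1.33 ± 0.28, adjusted p = 0.0248). *Slc2a1* gRNA replicate 1 was far above the other 2 libraries of its group, which were themselves above the controls. *Gm20390*, at 12.6, 9.98 and 7.01 CPM against 30.4, 18.5 and 17.7 CPM, is annotated as a transcript joining *Nme1* and *Nme2*, and 100% of its exonic bases lie in exons of those genes, so its counts cannot be assigned with certainty.

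Of 78 cytosolic ribosomal proteins tested, 77 had positive values, with a median of 0.26. In 48 of them all *Slc2a1* gRNA libraries were above all controls, against 1827 of all 13834 genes. However, only *Rplp1*, of the ribosomal stalk, passed (0.50 ± 0.13, adjusted p = 0.0424). Under total count scaling the median was 0.17, with 76 positive values, and neither there nor without the replicate block did a gene pass. Across all alternatives the number called higher ranged from 0 to 41, so it depended strongly on the setting. Many of these genes have processed pseudogenes that can share reads. Among 37 translation initiation factors the RNA helicase *Eif4a1* alone was called, from 494, 483 and 452 CPM in controls to 862, 713 and 643 CPM (0.63 ± 0.12, adjusted p = 0.018), with a list median of 0.14. In the alternatives between 0 and 12 of these factors were called higher.

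Chaperones of the cytosol and mitochondria fold new and damaged proteins. Of 23 heat shock and folding genes, 3 were higher and none lower (median 0.21). *Hspa8*, the constitutive HSP70, stood at 1663, 1750 and 1697 CPM in controls and 3346, 3194 and 2417 CPM in *Slc2a1* gRNA cultures (0.81 ± 0.14, adjusted p = 0.0145). *Hsph1*, its nucleotide exchange factor, rose by 0.71 ± 0.17 (adjusted p = 0.0327) and *Hspd1*, the mitochondrial chaperonin, by 0.61 ± 0.16 (adjusted p = 0.0499). In log2(TPM + 0.1) the value of *Hsph1* was 0.21 and did not pass (limma, adjusted p = 0.761), its mean level being 6.65 TPM in controls and 7.17 TPM in *Slc2a1* gRNA cultures. The proteasome had no call among 36 genes (median 0.09), with *Psmd8* at 289 to 328 TPM in controls and 228 to 300 TPM in *Slc2a1* gRNA cultures.

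Chaperones of the endoplasmic reticulum, which fold antibody and other secreted proteins, had calls only in the downward direction. Of 35 genes in the list, 5 were lower, none was higher and 30 did not pass, with a median of -0.19. *Calr*, the lectin chaperone calreticulin, stood at 1046, 1227 and 1235 CPM in controls and 826, 772 and 834 CPM in *Slc2a1* gRNA cultures (-0.53 ± 0.12, adjusted p = 0.0277). *Hsp90b1*, the ER form of HSP90, stood at 2228, 2688 and 2755 CPM against 1786, 1645 and 1935 CPM (-0.51 ± 0.13, adjusted p = 0.0406). *Pdia6*, a protein disulfide isomerase, fell by 0.48 ± 0.12 (adjusted p = 0.0452), and *Fkbp7*, a low-abundance prolyl isomerase, fell from 3.00, 3.10 and 3.58 CPM to 0.337, 0.867 and 0.943 CPM (-2.15 ± 0.48, adjusted p = 0.0286). *Manf* was the fifth. *Hspa5*, which encodes BiP, and *Xbp1* had values of -0.30 and 0.15 and did not pass. No member was called without any 1 of control replicates 1, 2 and 3 or *Slc2a1* gRNA replicates 1 and 2.

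Of the 36 enzymes in the hexosamine and N-glycan list, which make and trim the sugars of glycoproteins, 5 were lower and none higher, with a median of -0.12. The median was -0.06 without *Slc2a1* gRNA replicate 2. Calls numbered 1, 0 and 0 without control replicate 1, 2 or 3 and 1, 0 and 6 without *Slc2a1* gRNA replicate 1, 2 or 3. With only the 2 groups compared, 10 were lower and 1 higher. *Pgm3*, a hexosamine pathway mutase, fell from 21.3, 25.6 and 24.7 CPM to 12.0, 16.7 and 15.7 CPM (-0.69 ± 0.15, adjusted p = 0.0246). *Alg12*, a mannosyltransferase, fell by 0.55 ± 0.13 (adjusted p = 0.0375) and *Ganab*, a glucosidase that trims new N-glycans, by 0.46 ± 0.12 (adjusted p = 0.0429). *Uap1*, which makes UDP-N-acetylglucosamine, was also lower (-0.44 ± 0.11, adjusted p = 0.0453), and the rate-limiting *Gfpt1* had a value of -0.28 and did not pass. In addition, 28.3% of the exonic bases of *Pgm3* are shared with *Dop1a* on the opposite strand.

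The integrated stress response, in which ATF4 raises amino acid and stress genes, showed calls in both directions. Of 27 genes tested, 3 were higher and 1 lower (median 0.19). The median was 0.093 under total count scaling and -0.02 by limma on log2(TPM + 1) or log2(TPM + 0.1). *Ddit4*, an inhibitor of mTORC1, stood at 105, 76.8 and 61.0 CPM in controls and 194, 173 and 148 CPM in *Slc2a1* gRNA cultures (1.11 ± 0.12, adjusted p = 0.0033). *Atf5*, a transcription factor, stood at 119, 139 and 156 CPM against 362, 249 and 186 CPM (0.93 ± 0.21, adjusted p = 0.03), with *Slc2a1* gRNA replicate 1 the highest. *Stc2*, a secreted glycoprotein, rose by 0.70 ± 0.10 (adjusted p = 0.00698). *Ddit3*, which encodes the stress-induced factor CHOP, stood at 50.8, 56.8 and 59.2 CPM against 30.1, 31.2 and 38.6 CPM (-0.75 ± 0.15, adjusted p = 0.0187). *Atf4*, *Asns*, *Trib3* and *Chac1* had values of 0.11, 0.12, 0.20 and -0.14, and none passed. Cytosolic aminoacyl-tRNA synthetases, many of them ATF4 targets, had no call among 20 (median 0.09), with *Nars* at 259 to 342 TPM in controls and 285 to 371 TPM in *Slc2a1* gRNA cultures.

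Amino acid and nucleotide metabolism contained a few genes past the threshold. All 16 genes of serine, one-carbon and proline synthesis had positive values (median 0.19), and 3 passed: *Mthfd1l* (0.74 ± 0.15, adjusted p = 0.0192) and *Shmt1* (0.48 ± 0.12, adjusted p = 0.036), which move one-carbon units, and *Tyms*, the thymidylate synthase (0.73 ± 0.15, adjusted p = 0.022). In log2(TPM + 0.1) the value of *Shmt1* was 0.23 (limma, adjusted p = 0.544). Under total count scaling 12 of the 16 values stayed positive. Nucleotide synthesis and salvage held 3 higher and 3 lower genes of 32 (median 0.07). The purine enzyme *Pfas* rose by 0.56 ± 0.11 (adjusted p = 0.0207), as did *Gart* and the pyrimidine enzyme *Umps*. *Samhd1*, which degrades deoxynucleotides (-0.59 ± 0.12, adjusted p = 0.0209), *Dguok*, a mitochondrial salvage kinase (-0.77 ± 0.18, adjusted p = 0.0324), and *Adssl1* (-0.92 ± 0.20, adjusted p = 0.0283) fell.

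Of 21 amino acid transporters, 2 were higher and 1 lower (median -0.01). *Slc1a5*, a glutamine transporter, stood at 116, 92.1 and 108 CPM in controls and 184, 160 and 130 CPM in *Slc2a1* gRNA cultures (0.59 ± 0.14, adjusted p = 0.0307). *Slc1a1*, a glutamate transporter, was scarce in both groups, at most 0.245 CPM in controls and 0.684 to 1.78 CPM in *Slc2a1* gRNA cultures (2.78 ± 0.60, adjusted p = 0.0257), and 31.9% of its exonic bases overlap a gene on the opposite strand. *Slc43a2*, a carrier of large neutral amino acids, fell by 1.06 ± 0.25 (adjusted p = 0.035). Among 25 genes of AMPK and of mTORC1 inhibition, *Ddit4* alone passed (median -0.06). Of 37 lysosome and autophagy genes, *Ulk1*, the kinase that starts autophagy (-0.45 ± 0.11, adjusted p = 0.0332), and *Npc1*, which releases cholesterol from lysosomes (-0.55 ± 0.13, adjusted p = 0.0369), fell and none rose (median -0.07), and without the replicate block 1 gene passed.

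Of 39 mitotic genes tested, 7 were lower, none was higher and 32 did not pass, with a median of -0.30, and 38 had negative values. *Cdc25c*, the phosphatase that activates CDK1, stood at 28.8, 30.9 and 21.1 CPM in controls and 13.5, 15.1 and 13.2 CPM in *Slc2a1* gRNA cultures (-0.93 ± 0.14, adjusted p = 0.00806). *Cdc25b*, a related phosphatase, stood at 152, 148 and 128 CPM against 93.6, 100.1 and 93.4 CPM (-0.57 ± 0.11, adjusted p = 0.017). *Ccnb2*, a mitotic cyclin, fell by 0.59 ± 0.13 (adjusted p = 0.0298) and *Dlgap5*, a spindle protein, by 0.49 ± 0.11 (adjusted p = 0.0307). *Anln*, *Pttg1* and *Cenpa* were the other 3. *Mki67*, the proliferation marker, had a value of -0.15 and did not pass. Among 40 DNA replication genes *Tyms* was the only call, higher, and the median was 0.05. Without the replicate block 3 mitotic genes were called. Mitotic calls numbered 1, 0 and 1 without control replicate 1, 2 or 3 and 1, 0 and 9 without *Slc2a1* gRNA replicate 1, 2 or 3. The largest number called lower in any alternative was 21.

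Of 19 antigen presentation genes, 4 were lower and none higher, with a median of -0.29 and negative values for 18. No member was called without control replicate 1, 2 or 3, whereas 9 were lower with only the 2 groups compared. The 4 genes called each passed in 4 of the 9 fits that left out 1 library. *H2-Q7*, a class Ib MHC gene, stood at 1506, 1439 and 1383 CPM in controls and 913, 907 and 960 CPM in *Slc2a1* gRNA cultures (-0.63 ± 0.13, adjusted p = 0.0207). It belongs to a family of near-identical genes, so its counts may include reads of its relatives. *Tapbp*, the tapasin that loads peptides on class I molecules, fell by 0.61 ± 0.14 (adjusted p = 0.0324), and 29% of its exonic bases overlap other genes. The class II genes *H2-Eb1*, at 65.7, 43.1 and 54.7 CPM against 36.4, 22.4 and 37.1 CPM (-0.77 ± 0.15, adjusted p = 0.0175), and *H2-Ab1*, at no more than 3.31 CPM in any library (-2.16 ± 0.52, adjusted p = 0.0352), also fell. The classical class I genes *H2-K1* and *H2-D1* and *B2m* had values of -0.13, -0.15 and -0.09 and did not pass.

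Of 37 interferon-stimulated genes tested, 2 were higher and 3 lower, and the median was -0.06. *Mx1*, an antiviral GTPase, had the largest rise of the named genes (2.90 ± 0.37, adjusted p = 0.00526), but from no more than 1.29 CPM in controls. *Zbp1*, a nucleic acid sensor, rose by 0.60 ± 0.15 (adjusted p = 0.0421). *Ddx58*, which encodes the RNA sensor RIG-I, stood at 34.2, 33.7 and 35.5 CPM against 13.9, 16.7 and 21.3 CPM (-0.998 ± 0.161, adjusted p = 0.0102). *Stat2*, a transducer of interferon signals, fell by 0.58 ± 0.11 (adjusted p = 0.018), as did *Ifi203*.

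The NF-kB list likewise split, with 1 of 23 genes higher and 2 lower (median -0.03). *Lcn2*, a secreted iron-siderophore binding protein, was scarce, at 0.454, 1.35 and 2.91 CPM in controls and 12.5, 7.16 and 4.96 CPM in *Slc2a1* gRNA cultures (2.56 ± 0.53, adjusted p = 0.022). In contrast, *Slpi*, a secreted protease inhibitor, fell from 118, 61.2 and 35.3 CPM to 34.7, 14.96 and 15.08 CPM (-1.67 ± 0.20, adjusted p = 0.00398). *Traf1*, an adaptor of TNF receptors, fell by 0.70 ± 0.15 (adjusted p = 0.0254). *Ltb* (chr17:35194439-35196320, plus strand), which encodes lymphotoxin beta and was not on the list, was higher, at 1.64, 1.71 and 3.55 CPM in controls and 5.19, 6.80 and 9.47 CPM in *Slc2a1* gRNA cultures (1.65 ± 0.28, adjusted p = 0.012). Its promoter is given because it held the only GGGANTTTC (N for any base, either strand), a core of NF-kB sites, among the 21 genes searched. The match, in capitals, is the reverse complement and lies 77 bases upstream of the RefSeq start.
Ltb (chr17:35194257-35194506, plus strand): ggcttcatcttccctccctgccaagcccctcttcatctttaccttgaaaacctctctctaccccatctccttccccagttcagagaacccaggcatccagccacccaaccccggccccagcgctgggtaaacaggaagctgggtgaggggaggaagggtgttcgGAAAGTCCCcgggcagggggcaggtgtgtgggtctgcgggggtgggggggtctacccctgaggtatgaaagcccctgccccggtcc
This motif was present in 0.941% of all promoter windows. Of the other motifs, GAAANNGAA, a core of interferon response elements, was in 7.13% of windows and in 1 of the 21 genes (*Spp1*), and TGATGNAA, an ATF4 element, was in 3.45% of windows and in none of the 21.

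Plasma cell genes gave 2 higher and 1 lower of 17 (median -0.23). *Jchain* (chr5:88519809-88527891, minus strand), the joining chain of polymeric antibody, stood at 77.6, 73.5 and 66.2 CPM in controls and 29.9, 21.8 and 34.5 CPM in *Slc2a1* gRNA cultures (-1.33 ± 0.18, adjusted p = 0.00529). *Pou2af1*, a coactivator of immunoglobulin genes, stood at 419, 523 and 499.8 CPM against 698, 765 and 733 CPM (0.61 ± 0.12, adjusted p = 0.0207). *Cd28*, a costimulatory receptor, was at 1.42 to 2.06 CPM in controls and 4.20 to 10.6 CPM in *Slc2a1* gRNA cultures (2.02 ± 0.31, adjusted p = 0.00855). *Irf4*, *Prdm1* and *Xbp1* had values of 0.14, 0.12 and 0.15, and *Sdc1* of -0.35, none of which passed. Immunoglobulin transcripts took 2.96% to 3.25% of the counts in controls and 2.49% to 2.69% in *Slc2a1* gRNA cultures. None of 17 homing and adhesion genes passed (median -0.17), with *Cd81* at 140 to 198 TPM in controls and 137 to 164 TPM in *Slc2a1* gRNA cultures.

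Survival genes gave few calls. Among 12 members of the Bcl2 family *Bid*, a proapoptotic member, rose by 0.40 ± 0.10 (adjusted p = 0.0426), with a median of 0.12, and *Mcl1*, on which myeloma cells depend, had a value of -0.13 that did not pass. *Bid* was not called without the replicate block or under total count scaling (adjusted p = 0.062 and 0.125), where the median was 0.12 and 0.03, and by limma on log2(TPM + 1) it was -0.09. Of 17 p53 targets, the p53 ubiquitin ligase *Mdm2* (-0.48 ± 0.11, adjusted p = 0.0306) and the death receptor *Fas* (-0.89 ± 0.23, adjusted p = 0.0485) fell and none rose (median -0.09), but neither passed without the replicate block. No NRF2 antioxidant gene passed of 20 (median 0.15), with *Ftl1* at 1026 to 1295 TPM in controls and 1138 to 1538 TPM in *Slc2a1* gRNA cultures.

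Markers of other cells were mostly untestable at these counts. Of 11 B cell markers 4 were tested and of 12 T and NK cell markers 1, and none passed. Of 14 stromal and erythroid markers 4 were tested and none passed. Of 13 myeloid markers 3 were tested, and *Mrc1* rose from 16.2, 22.1 and 24.3 CPM to 32.0, 35.7 and 34.6 CPM (0.73 ± 0.12, adjusted p = 0.0125) while *Cd68* fell from 104, 65.7 and 78.3 CPM to 54.5, 38.5 and 48.6 CPM (-0.80 ± 0.14, adjusted p = 0.0145). The third, *Adgre1*, had a value of 1.34 ± 0.62 that did not pass (adjusted p = 0.233), at less than 1 TPM in every library, with each *Slc2a1* gRNA library above each control. *Csf1r*, *S100a8* and other defining myeloid markers were at or near 0 in all 6 libraries.

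Beyond the lists, other genes were among the 15 with the largest rises or falls. *Cyb561a3*, a lysosomal cytochrome, rose from 3.49, 5.36 and 5.60 CPM to 14.7, 29.4 and 21.6 CPM (2.17 ± 0.19, adjusted p = 0.000958), and 20.1% of its exonic bases overlap *Tkfc* and *Tmem138* on the opposite strand. *Cbfa2t3*, a transcriptional corepressor, rose from 29.8, 21.1 and 33.02 CPM to 93.7, 69.8 and 55.1 CPM (1.39 ± 0.19, adjusted p = 0.0062). *Cox4i2*, an isoform of a cytochrome oxidase subunit, rose from 3.88, 2.15 and 2.14 CPM to 7.07, 6.61 and 6.84 CPM (1.36 ± 0.26, adjusted p = 0.017). *Umodl1* (1.30 ± 0.19) and the ATP-gated channel *P2rx3* (1.20 ± 0.28) also rose (adjusted p = 0.00667 and 0.0324).

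Among the falls, *Maged1*, a MAGE family adaptor, went from 97.1, 102 and 107 CPM to 40.9, 44.6 and 56.8 CPM (-1.11 ± 0.12, adjusted p = 0.0033). *Adgrb2*, an adhesion G protein-coupled receptor, fell from 19.98, 18.3 and 28.7 CPM to 4.14, 5.34 and 12.9 CPM (-1.64 ± 0.31, adjusted p = 0.017), with *Slc2a1* gRNA replicate 3 the highest of its group. *Arhgef39*, a guanine nucleotide exchange factor, fell from 55.7, 63.4 and 49.0 CPM to 21.5, 24.3 and 26.8 CPM (-1.20 ± 0.18, adjusted p = 0.00705). *Ctse*, an aspartic protease, fell from 55.1, 66.3 and 81.4 CPM to 22.03, 30.02 and 37.1 CPM (-1.19 ± 0.21, adjusted p = 0.0132). *Spp1* (osteopontin), *Spsb2*, *Plaat3* (a phospholipase) and the histone gene *H2bc4* completed the set, with log2 fold changes of -1.28, -1.25, -1.15 and -1.09. None of these genes overlapped between the groups.

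The 5-gene gRNA libraries share the control libraries with this comparison, so their levels are given only side by side. *Txnip* stood at 322, 290 and 189 CPM there, *Ldha* at 1486, 1260 and 1238 CPM, *Hmgcs1* at 36.0, 47.3 and 43.3 CPM, and *Ddit3* at 118, 74.0 and 110 CPM.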

How the data were processed

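RNA from 3 cultures per group had been prepared with the SMARTseq V4 kit, which does not keep strand. The authors mapped paired reads with Salmon (version 1.5.1 in the submitters' processing notes) on the Galaxy platform and deposited, per library, gene-level estimated counts and TPM; settings and annotation are not given in the sources used here. Rounded counts entered edgeR 4.0.16 (R 4.3.3; quasi-likelihood F-test, TMM, default filter, Benjamini-Hochberg adjustment, threshold 0.05) on all 9 libraries with the replicate number as a block. The numbers were taken to pair the samples because the study states a paired test for its sugar transporter RNA-seq figure. Deviations from the group means were weakly correlated across genes in same-numbered *Slc2a1* gRNA and control libraries (r = 0.149, 0.111 and 0.215). In differently numbered libraries r ran from -0.20 to 0.038. SE was derived from the F statistic. TPM served for levels, for the naming rule and for the limma alternatives. The fits were first tested on simulated data. Replicates are labelled as biological; counting error alone is far smaller than their spread.

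Named genes were the 15 largest rises and 15 largest falls among genes past the threshold, with a mean of at least 5 TPM in the higher group and 1 direction in all 3 pairs, up to 4 called members of each list, and for lists with no call the most abundant members; uncalled members given for contrast were chosen after their values were seen. The members and lists were chosen with earlier results of these data known. Coordinates and exon overlap are from GENCODE M21 on GRCm38. Alternatives were DESeq2 1.42.0, limma 3.58.1 on log2 TPM, voom, other filters, scalings and sample sets, and leaving out each library. A few members of the gene lists are counted in the list totals but not reported by name here.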

Additional observations from a re-analysis of the deposited data

How the results depend on the processing

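Against 642 genes in the fit reported, 1255 were called by DESeq2, 1448 with no filter on low counts, 2268 with only the *Slc2a1* gRNA and control libraries in the fit, 106 with a 2-fold minimum, 52 by limma with log2(TPM + 0.1) and 0 by limma with log2(TPM + 1), although 2367 genes reached p under 0.05 there before adjustment. Leaving out 1 library in turn gave between 11 and 1291, with 72, 11 and 45 without control replicates 1, 2 and 3 and 64 and 24 without *Slc2a1* gRNA replicates 1 and 2. Without the replicate block 534 genes were called, 505 of them among the 642. Scaling by total counts, voom, a minimum of 10 counts in each of the 6 libraries, and the fit on 6 libraries without the block gave 737, 741, 788 and 572. The settings with TPM changed the unit and the tool together, and DESeq2 came with its own size factors. Across these settings 622 of the 642 genes were tested in all and 20 were absent from at least 1, and each kept its direction where tested. The settings reuse the libraries that chose the genes, so the kept direction is no independent test. For 117 of the genes named 1504 values were on the same side of the threshold and 833 no longer past it. *Slc2a1* turned from -0.21 to 0.042 without control replicate 1 and ranged down to -0.41 without control replicate 2. Glycolysis, HIF target, cholesterol, ribosome biogenesis, mitosis, antigen presentation and mitochondrial genome medians kept their sign in all of them, but glycolysis, HIF target and ribosome biogenesis medians shrank from 0.28, 0.40 and 0.41 to 0.07, 0.03 and 0.23 with log2(TPM + 1). Medians of the TCA cycle and of amino acid transporters changed sign in 6. The number of list members called also rose in some settings and fell to 0 in others. It reached 29 higher for ribosome biogenesis, 14 higher for nuclear oxidative phosphorylation, 10 higher for heat shock and 14 lower for ER chaperones. With log2(TPM + 1), where the median of all genes was -0.11, the medians of the integrated stress response, Bcl2 family, translation initiation, tRNA synthetase, proteasome, pentose phosphate, DNA replication, nucleotide and B cell marker lists also turned from positive to negative. Of 117 called genes named, 12 shrank by more than 1.5 times with log2(TPM + 0.1) (*Bid*, *Cbfa2t3*, *Gar1*, *Gys1*, *Hsph1*, *Myc*, *Ndufa2*, *Nme1*, *Nop56*, *Shmt1*, *Slc1a1* and *Slc1a5*), 21 with log2(TPM + 1) and 0 under total count scaling. With 3 libraries per group, genes at a few CPM such as *Mx1*, *Lcn2*, *Fkbp7* and *H2-Ab1* have wide errors. The cause of the dependence on single libraries was not tested.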

Other observations

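Of the 642 genes called, 533 were on none of the lists, and the genes below were chosen from them after their values were seen. *Abcg1*, a second sterol exporter, rose from 85.3, 81.9 and 105 CPM in controls to 197, 175 and 175 CPM in *Slc2a1* gRNA cultures (log2 fold change 1.01 ± 0.14, adjusted p = 0.00563 by edgeR), and *Scap*, the sterol-sensing escort of SREBP, rose by 0.81 ± 0.15. *Pgm1* and *Gys1*, which lead glucose phosphates into glycogen, rose by 0.80 ± 0.14 and 0.56 ± 0.12. The cytokine *Mif* rose from 518, 371 and 277 CPM to 736, 730 and 541 CPM (0.81 ± 0.15, adjusted p = 0.0146), and *Fam162a*, a mitochondrial protein, from 103, 50.6 and 30.8 CPM to 135, 132 and 104 CPM (1.14 ± 0.21, adjusted p = 0.016). *Tomm40* and *Timm10*, of the mitochondrial import machinery, rose by 0.71 ± 0.12 and 0.62 ± 0.13. The nucleolar genes *Nol6*, *Noc2l*, *Rrp15*, *Gar1* and *Nhp2* rose by 0.54 to 0.73.

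Among the falls outside the lists, *Sec23a*, a component of the vesicle coat that leaves the endoplasmic reticulum, went from 97.6, 91.3 and 92.8 CPM to 51.2, 45.3 and 62.8 CPM (-0.83 ± 0.13, adjusted p = 0.0102). *Sec24d* of the same coat fell by 0.55 ± 0.12, and the Golgi genes *Golgb1* and *Gbf1* by 0.55 ± 0.12 and 0.43 ± 0.11. *Clk1* and *Clk4*, kinases of splicing factors, fell by 0.68 ± 0.14 and 0.54 ± 0.13. *Cpt1a*, which admits fatty acids to mitochondria, and *Pnpla2*, a triglyceride lipase, fell by 0.67 ± 0.17 and 0.42 ± 0.10. *H2-Q10*, a relative of *H2-Q7* that may share its reads, fell by 0.85 ± 0.13.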
